A study of Mus musculus with 20 samples.

Results

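The Hox cluster genes were described here in bone marrow of male 129S4 mice. A gene counted as a member when its symbol in the deposited count table was Hox followed by a cluster letter (a, b, c or d) and a number, and where a symbol had several transcript rows the row with the largest total was used. This gave 39 genes in 41 rows, out of 20377 gene symbols in 26005 rows, with 11 members in HoxA, 10 in HoxB and 9 each in HoxC and HoxD. KSL cells (cKit+ Sca1+ Lin-, the fraction that holds blood stem cells and early progenitors) were sorted 2 times in pools of 5 mice per library, with 3 libraries in each of 4 groups, Fancd2-/- or wild-type mice on a placebo diet or on a diet with the androgen oxymetholone at 300 mg/kg. Erythroblasts (Ter119+ CD71-high FSC-high) came from 1 wild-type mouse per library, 3 on each diet. Whole bone marrow was 1 library per genotype, combined from 5 placebo-fed mice. The diets ran for 3 months from weaning, and the mice were 4 months old. Fancd2 is a Fanconi anemia gene needed to repair DNA crosslinks.

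Hox genes encode homeodomain transcription factors. They lie side by side in 4 clusters in the order in which they act along the body axis, and genes at the same paralog position (1 to 13) in different clusters descend from 1 ancestral gene. In blood, genes of HoxA and HoxB are active in stem and progenitor cells and are switched off as the cells mature. Trithorax proteins such as MLL keep them on, Polycomb proteins keep them off, and the proteins act together with the TALE cofactors MEIS and PBX.

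Paralogs are alike in the homeodomain, which bears on how well reads of 51 bases could tell them apart. Levels are given as CPM, the read count of a gene scaled to a common library size. Over whole transcripts, Hoxa6 shared 2 of its 1681 words of 51 bases with Hoxb4, and Hoxa7, Hoxa9 and Hoxa10 shared 0 with any other gene. Larger overlaps lie between neighbours. Hoxb8 shares 40.4% of its exon bases with Hoxb7 on the same strand and Hoxa2 shares 15.9% with Hoxa3. By words, Hoxa2 shared 219 of 2373 with Hoxa3 and Hoxd4 shared 1058 of 2510 with Hoxd3. Of the 3781 words of Hoxb7, 1026 lay in other genes, among them Hoxb8. On the opposite strand Hoxb3os covers 58.6% of Hoxb2 and 67.9% of Hoxb3, and noncoding transcripts cover 20.9% of Hoxa3. The sources used here give neither the strand setting of the counting nor how multiply aligned reads were counted. The levels of Hoxb2, Hoxb3, Hoxa3, Hoxb7, Hoxb8, Hoxa2 and Hoxd4 are uncertain to that extent.

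The libraries held 10777293 to 121347117 counted reads for KSL cells, 17177255 to 20816422 for erythroblasts, and 100192496 and 106889481 for whole marrow. Fancd2 was at 6.63 to 8.79 CPM in the 6 Fancd2-/- KSL libraries and between 16.6 and 23.4 CPM in the 6 libraries of wild-type KSL cells. The 6 KSL markers (among them Kit, Ly6a, Cd34, Flt3 and Gata2) summed to 2704 to 3923 CPM in KSL libraries, 0.341 to 1.10 CPM in erythroblasts and 142 to 153 CPM in whole marrow, while erythroblast markers summed to 20200 to 22983 CPM in erythroblasts and 59.2 to 143 CPM in KSL cells. One KSL library, Fancd2-/- placebo replicate 3, stood apart on the first principal component, at -54.8 against -5.44 to 18.6 for the other 11. It also had the highest fibroblast and stromal marker sum of the KSL libraries (155 CPM, against 52.4 to 111 CPM), and the lowest KSL marker sum (2704 CPM). The highest erythroblast marker sum of the KSL libraries, 143 CPM, was in Fancd2-/- placebo replicate 2.

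KSL cells carried a Hox pattern of HoxA and HoxB. In the 12 KSL libraries all Hox transcripts summed to 222 to 316 CPM, of which HoxA made up 74.4 to 81.3% and HoxB 18.2 to 24.9%. HoxC reached at most 0.739% of the sum and HoxD at most 0.118%. By position along the clusters, anterior genes (1 to 3) took 18.2 to 23.5%, central genes (4 to 8) 33.9 to 45.1% and posterior genes (9 to 13) 36.0 to 45.03%. The posterior share came mostly from Hoxa9 and Hoxa10, which made up 19.4 and 19.99% of the Hox sum in wild-type placebo KSL cells.

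**Figure D1:**
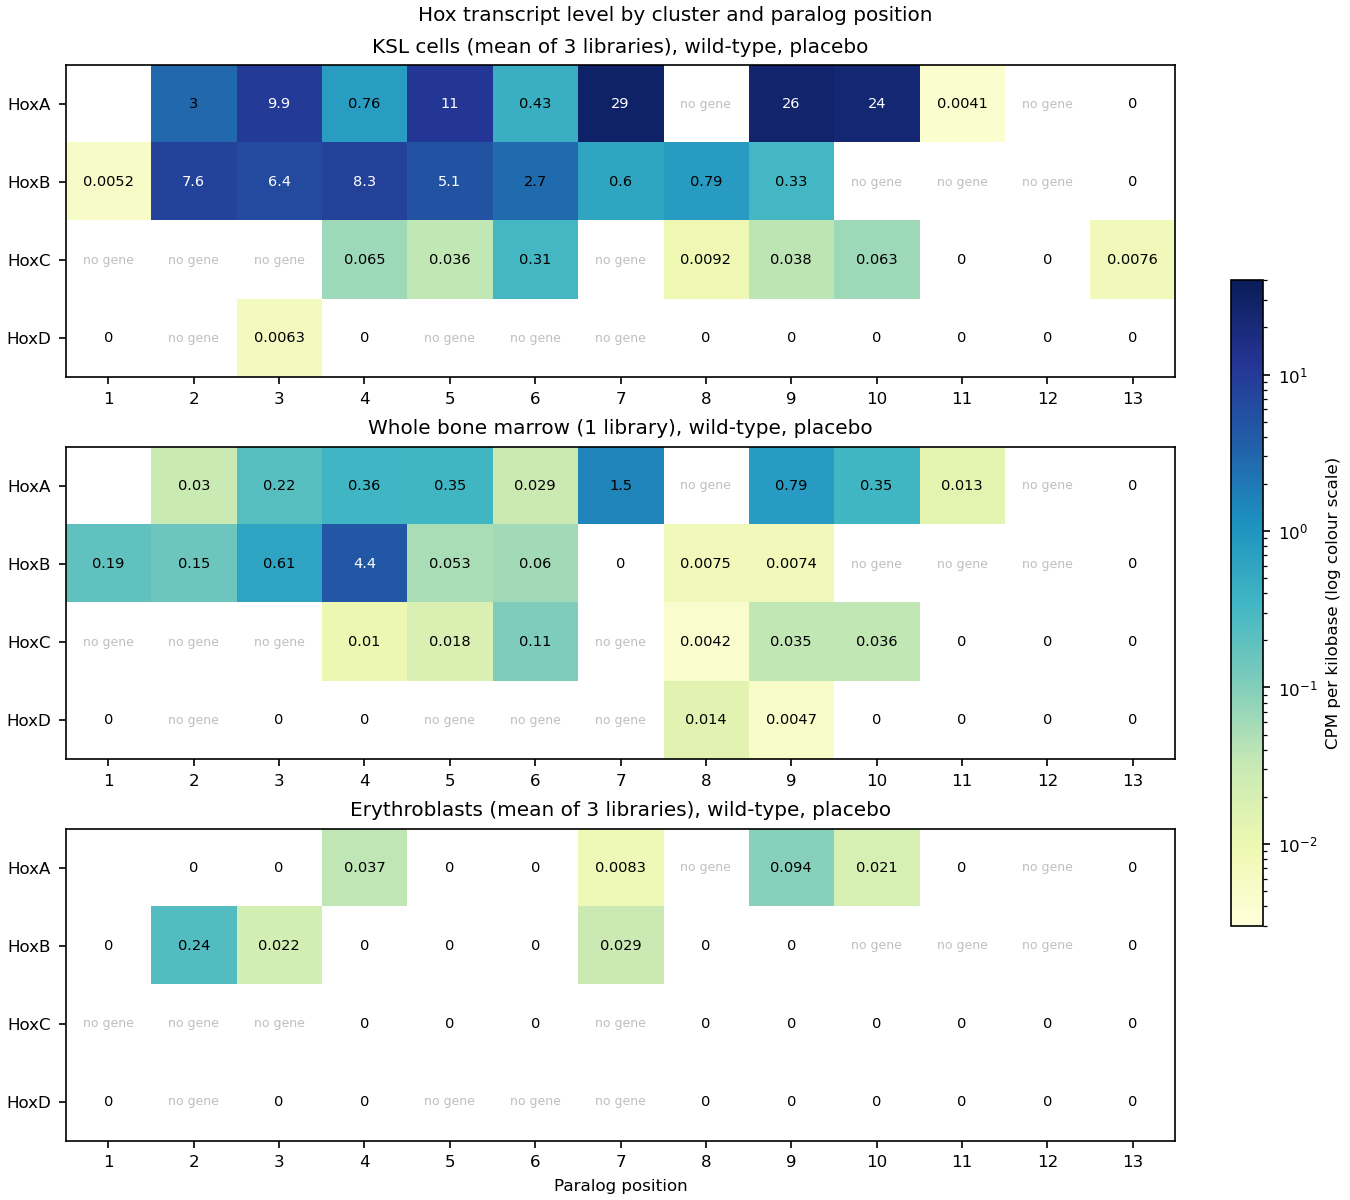
CPM per kilobase of transcript by cluster (rows) and paralog position (columns) in wild-type placebo KSL cells, whole bone marrow and erythroblasts. The colour scale is log, values are printed in the cells, and lengths are of Ensembl models. KSL cells peak at Hoxa7 (29.5), Hoxa9 (25.8) and Hoxa10 (23.6), whole marrow peaks at Hoxb4, and most erythroblast cells of the grid are at 0.

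To compare genes with each other, CPM were divided by transcript length in kilobases. The lengths were of Ensembl models, while the counts were of RefSeq transcripts. Coordinates of the 2 differed by 2194 bases for Hoxa7, 954 for Hoxa9, 1675 for Hoxb2, 1423 for Hoxb3 and 0 for Hoxa10. The model lengths of Hoxb3 and Hoxb2 were 3313 and 1629 bases, where the word search above held 1840 and 3254 words. The order below holds for the model lengths only. In wild-type placebo KSL cells Hoxa7 led at 29.5 ± 3.64 CPM per kb (SD, n = 3), followed by Hoxa9 at 25.8 ± 1.25 and Hoxa10 at 23.6 ± 3.87. The ranges of neighbours in this order overlapped, so the first 3 could not be ordered, but each library of Hoxa10 lay above every library of the next gene. That was Hoxa5 at 11.1 ± 1.35 CPM per kb, and below it came Hoxa3 (9.87 ± 1.28), Hoxb4 (8.33 ± 1.76), Hoxb2 (7.61 ± 1.18), Hoxb3 (6.44 ± 1.43) and Hoxb5 (5.08 ± 0.109), each overlapping its neighbour. Hoxa2 (2.96 ± 0.181) and Hoxb6 (2.68 ± 0.613) overlapped each other and lay below Hoxb5 in every library. Hoxb8 (0.787), Hoxa4 (0.760), Hoxb7 (0.60), Hoxa6 (0.431), Hoxb9 (0.329) and Hoxc6 (0.310) were lower still, in CPM per kb. Level did not follow position: Hoxa4 and Hoxa6 lay below Hoxa3, Hoxa5 and Hoxa7, between which they sit in the cluster, in every wild-type placebo library.

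The remaining members were near 0. Of HoxC, Hoxc4, Hoxc5, Hoxc6, Hoxc8 and Hoxc9 stayed at or below 0.880 CPM in every library. Hoxc10 was uneven, with 0.988 CPM in Fancd2-/- oxymetholone replicate 3 and 0.106 ± 0.0938 CPM in wild-type placebo cells. Hoxc13 reached 0.131 CPM, and Hoxa11 0.0478 and Hoxa13 0.0631 CPM. The HoxD genes Hoxd1, Hoxd3, Hoxd4, Hoxd8, Hoxd9, Hoxd10 and Hoxd13 reached between 0.00937 (Hoxd4) and 0.196 CPM (Hoxd3) in their highest library. No read was counted in any of the 20 libraries for 5 members, Hoxb13, Hoxc11, Hoxc12, Hoxd11 and Hoxd12, which are all posterior genes. In all, 10 members reached a mean of 5 CPM in a replicated group, 4 more reached 1 CPM (Hoxa4, Hoxb6, Hoxb8 and Hoxb9) and 25 did not.

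A pair of promoters is shown because posterior genes divided sharply, Hoxa9 being among the highest Hox genes of KSL cells and Hoxd13 at 0.0824 CPM in its highest library. The sequences are from RefSeq on GRCm38.p6, 250 bases before to 50 bases after the transcript start, with CpG dinucleotides, the sites of DNA methylation, in capitals. The Hoxa9 promoter is chr6:52227321-52227620 on the minus strand and the Hoxd13 promoter chr2:74667975-74668274 on the plus strand.
Hoxa9: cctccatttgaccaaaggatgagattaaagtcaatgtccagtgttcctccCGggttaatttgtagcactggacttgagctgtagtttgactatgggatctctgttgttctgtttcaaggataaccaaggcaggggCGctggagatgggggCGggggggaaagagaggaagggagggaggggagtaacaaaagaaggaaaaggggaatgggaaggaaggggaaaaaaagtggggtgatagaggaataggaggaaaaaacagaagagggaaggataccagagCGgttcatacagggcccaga
Hoxd13: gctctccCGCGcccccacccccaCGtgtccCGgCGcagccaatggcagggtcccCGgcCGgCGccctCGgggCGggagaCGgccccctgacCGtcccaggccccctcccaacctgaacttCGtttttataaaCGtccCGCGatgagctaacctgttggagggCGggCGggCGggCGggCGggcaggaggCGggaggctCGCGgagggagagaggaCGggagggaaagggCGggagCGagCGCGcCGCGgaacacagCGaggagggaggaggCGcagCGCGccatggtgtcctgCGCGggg
The Hoxa9 window held 4 CpG and the Hoxd13 window 37. A promoter was given for 22 of the 39 members (24 windows), with a median of 14.5 CpG against 7 in all 32851 promoters of the same length, and 5.6% of all promoters held at least as many as Hoxd13. Neither window held the PBX-HOX motif TGATNNAT or the MEIS motif TGACAG on either strand, which are present in 8.8% and 19.2% of all promoters, and Hoxd13 but not Hoxa9 held TATAAA (13.6% of all promoters). The windows of Hoxa5, at 20.9 CPM in wild-type placebo KSL cells, and of Hoxd1, at 0 CPM, each held 29 CpG.

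Among the posterior members, Hoxa9 (NM_010456, chr6:52174053-52177369, minus strand, mm9), a driver of progenitor growth that works with MEIS1, was at 59.0, 55.7 and 61.4 CPM in wild-type placebo KSL replicates 1 to 3 and at 55.2, 63.5 and 49.8 CPM in wild-type oxymetholone ones. The Fancd2-/- placebo libraries held 45.2, 45.8 and 44.0 CPM, and the Fancd2-/- oxymetholone libraries 54.8, 49.5 and 48.1 CPM. The 3 Fancd2-/- placebo libraries were the lowest of the 12. Hoxa10 (NM_008263, chr6:52181196-52184938, minus strand), its neighbour, was at 54.9, 54.6 and 71.9 CPM (wild-type placebo), 62.7, 53.3 and 63.3 CPM (wild-type oxymetholone), 68.5, 52.2 and 46.3 CPM (Fancd2-/- placebo) and 65.7, 73.2 and 52.6 CPM (Fancd2-/- oxymetholone). All 4 groups of Hoxa10 overlapped.

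Of the central members, Hoxa7 (NM_010455, chr6:52165623-52168572, minus strand), often active with Hoxa9 in MLL leukaemia, was at 55.7, 65.4 and 51.6 CPM (wild-type placebo), 46.4, 62.6 and 50.9 CPM (wild-type oxymetholone), 49.3, 52.9 and 45.02 CPM (Fancd2-/- placebo) and 51.8, 50.7 and 63.0 CPM (Fancd2-/- oxymetholone). Hoxa5 (NM_010453, chr6:52151753-52154586, minus strand) was at 19.96, 23.7 and 18.9 CPM, 17.2, 25.4 and 17.2 CPM, 21.1, 18.3 and 11.8 CPM, and 17.5, 18.8 and 20.3 CPM in the same order of groups. Its lowest value was in the Fancd2-/- placebo library that stood apart. Hoxb4 (NM_010459, chr11:96179581-96182952, plus strand), known for expanding stem cells when forced on, was at 18.8, 26.6 and 18.7 CPM, 16.7, 26.8 and 16.8 CPM, 15.9, 12.4 and 16.9 CPM, and 16.7, 16.9 and 27.7 CPM in that order. Hoxb5 (NM_008268, chr11:96164826-96167435, plus strand), used as a reporter gene for long-term stem cells, was at 9.48, 9.86 and 9.54 CPM, 8.84, 7.10 and 7.93 CPM, 7.40, 5.05 and 6.60 CPM, and 9.14, 7.91 and 6.89 CPM. The 3 wild-type placebo libraries of Hoxb5 lay above all 9 others.

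Of the anterior members, Hoxa3 (NM_010452, chr6:52119061-52163066, minus strand), which patterns the thymus and parathyroid in the embryo, was at 22.4, 24.2 and 28.7 CPM (wild-type placebo), 19.5, 21.7 and 24.1 CPM (wild-type oxymetholone), 24.0, 18.2 and 13.7 CPM (Fancd2-/- placebo) and 27.5, 18.1 and 17.0 CPM (Fancd2-/- oxymetholone). Hoxb3 (NM_010458, chr11:96205083-96209244, plus strand), its paralog, was at 16.3, 21.95 and 25.7 CPM, 16.6, 22.4 and 20.6 CPM, 16.6, 13.9 and 9.11 CPM, and 15.7, 18.3 and 19.0 CPM. In both genes the lowest library of the 12 was Fancd2-/- placebo replicate 3. Hoxb2 (NM_134032, chr11:96212946-96215328, plus strand), a hindbrain gene in the embryo, was at 11.99, 10.7 and 14.5 CPM, 8.75, 9.30 and 9.09 CPM, 10.1, 8.24 and 11.4 CPM, and 7.63, 11.3 and 9.89 CPM. Hoxa2 (NM_010451, chr6:52112510-52114830, minus strand), which patterns the second branchial arch, was at 4.63, 5.07 and 5.22 CPM, 5.81, 3.18 and 5.67 CPM, 5.81, 4.45 and 5.32 CPM, and 5.22, 6.51 and 4.44 CPM. Its groups all overlapped.

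**Figure D2:**
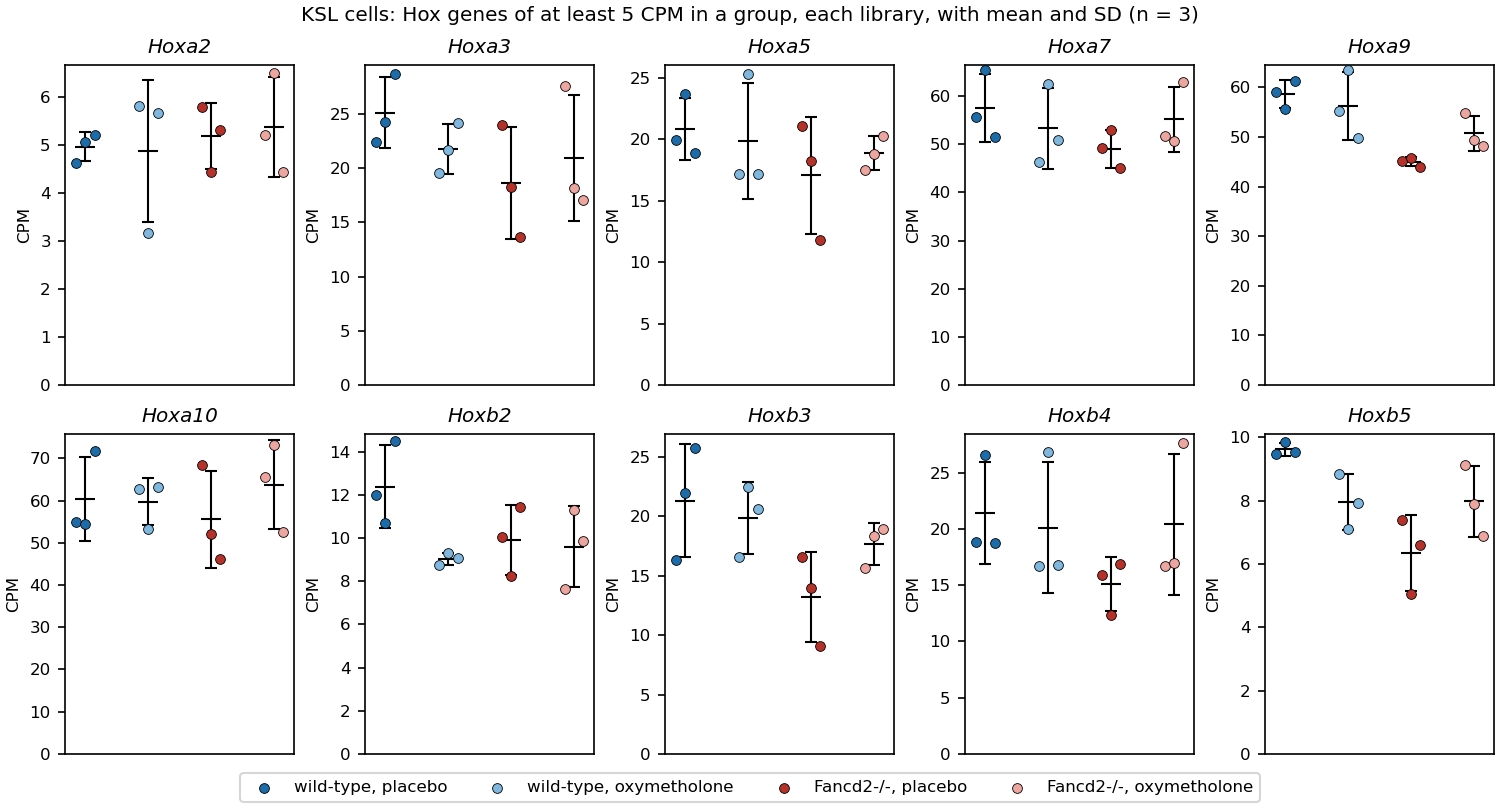
CPM (vertical axis, from 0) of the 10 Hox genes of at least 5 CPM in each of the 12 KSL libraries by genotype and diet, with mean and SD bars (n = 3 libraries per group). The 3 Fancd2-/- placebo points of Hoxa9 lie together at 44.0 to 45.8 CPM, below all wild-type placebo points, while the 4 groups of Hoxa10 and Hoxa2 overlap.

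Erythroblasts had almost no Hox transcripts. The Hox sum was 0.504 to 1.30 CPM in placebo-fed and 0.711 to 1.29 CPM in oxymetholone-fed erythroblast libraries, against 282 to 316 and 263 to 303 CPM in wild-type KSL libraries on the same diets. Over all 6 erythroblast libraries 104 Hox reads were counted, of which 49 were of Hoxb2 and 26 of Hoxa9, and 27 of the 39 members had 0 reads. HoxC had 0 reads in all 6. In bulk samples fewer cells of a type and less RNA per cell cannot be told apart.

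On placebo 15 members passed the low-count filter, and edgeR's quasi-likelihood test called all 15 lower in erythroblasts, where 53.7% of all 12538 genes tested were called lower. On oxymetholone it was 13 of 13, against 53.9% of 12518 genes. The other members (24 and 26) were not tested. A member passed the filter only through its KSL libraries and so had to differ, and these counts lend no support of their own.

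Where erythroblasts had no read, the level of 3 reads over the 3 libraries (0.0527 CPM on placebo) was used as a floor, which covers counting error only. By that measure Hoxb4 was at least 471-fold, Hoxa3 at least 465-fold, Hoxa5 at least 435-fold, Hoxb5 at least 188-fold and Hoxa2 at least 96.0-fold higher in placebo KSL cells than in erythroblasts, in pooled CPM. Hoxa7 had 1 erythroblast read against 10622 KSL reads, a ratio of 3607 with a 95% counting interval of 647 to 142496. Hoxa10 had 3 against 9486 (1074, 367 to 5208).

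Hoxa9 and Hoxb2 were the 2 members with reads in all 6 erythroblast libraries. Hoxa9 was at 0.296, 0.195 and 0.151 CPM in placebo and 0.30, 0.191 and 0.203 CPM in oxymetholone libraries, and its fitted log2 change against KSL cells was -6.72 ± 0.23 (SE) on placebo and -6.51 ± 0.24 on oxymetholone. Hoxb2 was at 0.652, 0.438 and 0.101 CPM and at 0.350, 0.670 and 0.305 CPM. Its fitted change was -3.59 ± 0.35 and -2.93 ± 0.29, in a gene with an overlapping antisense transcript. Hoxb2 was the highest Hox gene of erythroblasts and only the eighth of placebo KSL cells by CPM. Hoxa4 had 3 placebo erythroblast reads (log2 -3.13 ± 0.71), Hoxb7 had 2 (-3.03 ± 0.75) and Hoxb3 had 4 (-6.81 ± 0.42). These changes are given as descriptions, with no test, since each member passed the filter through its KSL libraries. No member passed the filter in the comparison of oxymetholone with placebo within erythroblasts, so no test of the diet could be made there.

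**Figure D3:**
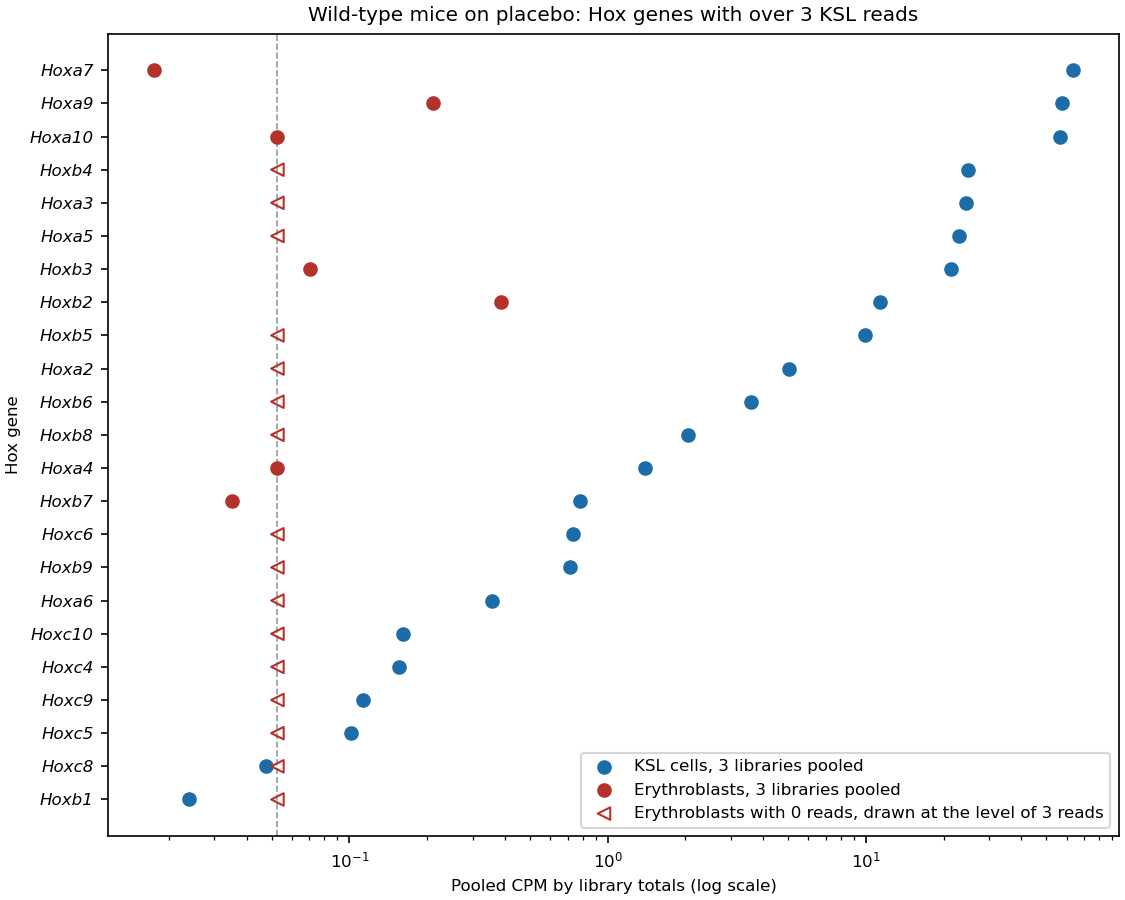
Pooled CPM (log scale) of Hox genes with more than 3 reads in wild-type placebo KSL cells, in KSL cells (blue) and erythroblasts (red). Open triangles have 0 erythroblast reads and are drawn at the level of 3 reads (0.0527 CPM, dashed line), and Hoxb2 is the red point farthest to the right.

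The scaling bears on these comparisons. TMM factors were 1.58 to 1.73 for KSL and 0.596 to 0.633 for erythroblast libraries on placebo, which raises erythroblast values relative to CPM by library totals. With library totals alone, tried after the data were seen, the median over all genes moved from -0.67 to -2.08, and of 11629 genes called 2380 were higher in erythroblasts, against 4665 of 11404 with TMM.

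Cofactors and regulators moved in both directions. Of 9 TALE cofactors 7 were tested, 2 were called higher and 5 lower in placebo erythroblasts, where 37.2% of all genes tested were called higher and 53.7% lower. Meis1, the main partner of Hoxa9, was at 231 ± 18.2 CPM in placebo KSL cells and had 0 reads in the placebo erythroblasts, and Pbx3 was at 9.04 ± 1.99 CPM in KSL cells against 36.4 ± 2.98 CPM in erythroblasts (log2 3.45 ± 0.16, adjusted p = 9.929e-12). Pknox1 was called higher (1.58 ± 0.10, adjusted p = 6.371e-10) but not with library totals (0.16, adjusted p = 0.1521). Of 15 activators 12 were tested, and 9 were called higher and 3 lower. In CPM scaled within each population, 5 of the 12 lay above KSL cells without overlap and 7 below, against 19.6% above and 73.7% below over all genes, so the split depends on the scaling. Dot1l, the histone H3K79 methyltransferase, was higher on both scales, at 353 ± 7.04 against 57.9 ± 9.18 CPM (4.00 ± 0.13, adjusted p = 2.823e-13), as were Kdm6a (3.19), Myst3 (3.22) and Mllt10 (2.31).

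Of 16 Polycomb genes all were tested, 6 were called higher and 9 lower in placebo erythroblasts, and by CPM 3 lay above and 13 below without overlap, shares near those over all genes on that scale. Ezh2, the H3K27 methyltransferase, was at 261 ± 4.76 CPM against 153 ± 9.84 CPM in KSL cells (log2 2.17 ± 0.10, adjusted p = 9.551e-12) and Asxl1 at 191 ± 4.47 against 107 ± 8.21 CPM (2.23 ± 0.10, adjusted p = 5.749e-12). Phc1, a PRC1 member, was lower, at 3.90 ± 0.194 against 98.5 ± 8.78 CPM (-3.26 ± 0.13, adjusted p = 2.24e-12). Of the 12 genes beside the clusters 8 were tested, 4 called higher and 4 lower, against 37.2% and 53.7% of all genes tested. By CPM 2 of the 12 lay above and 5 below without overlap, against 19.6% and 73.7% of all genes tested. The 4 named next were chosen by p, none lies beside HoxB, and the clusters were not compared. Skap2, next to HoxA, was at 3.31 ± 0.483 against 135 ± 7.02 CPM (-3.96 ± 0.14, adjusted p = 4.285e-13) and Hibadh, near HoxA, at 12.8 ± 1.19 against 148 ± 14.2 CPM (-2.14 ± 0.12, adjusted p = 9.813e-11). Cbx5, beside HoxC, was at 996 ± 50.6 against 260 ± 29.0 CPM (3.33 ± 0.12, adjusted p = 6.914e-13) and Lnp, beside HoxD, at 88.8 ± 1.20 against 19.4 ± 4.81 CPM (3.59 ± 0.16, adjusted p = 9.509e-12).

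Whole bone marrow had a Hox make-up of its own. The Hox sum was 22.03 CPM in the wild-type and 22.3 CPM in the Fancd2-/- library, and HoxB took 64.2 and 64.9% of it and HoxA 34.0 and 33.1%, where HoxA made up the larger share in KSL cells. Hoxb4 was at 11.3 CPM (1131 reads) in wild-type and 11.6 CPM (1241 reads) in Fancd2-/- marrow, 51.2 and 52.1% of the Hox sum, against 7.07% of it in wild-type placebo KSL cells.

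Set beside KSL cells, 13 members reached 1 CPM in wild-type placebo KSL cells and 12 of them had over 3 reads in wild-type marrow. The KSL marker list summed to 24.2 times as much in wild-type KSL cells as in wild-type marrow, and 8 of those 12 members were at least that far above marrow. These members were chosen by their level in KSL cells, and no share over all genes chosen in that way is given. The count of 8 is a description and lends no support of its own. Hoxa2 was 99.7-fold (5 marrow reads), Hoxb5 96.6-fold (10 reads), Hoxa10 68.1-fold, Hoxb6 44.4-fold (8 reads), Hoxa9 32.9-fold and Hoxa7 19.97-fold higher in KSL cells. Between the Fancd2-/- placebo KSL cells and the Fancd2-/- marrow library the same ratios were 30.8 for Hoxa2 (18 reads), 48.4 for Hoxb5 (14 reads), 44.998 for Hoxa10, 13.8 for Hoxb6 (15 reads), 25.7 for Hoxa9 and 20.3 for Hoxa7, with the marker list at 21.8. In wild-type Hoxb3 was 10.6-fold, Hoxa4 2.12-fold and Hoxb4 1.90-fold higher. Hoxb1 ran the other way, with 39 reads in wild-type and 31 in Fancd2-/- marrow (0.389 and 0.290 CPM) and a mean of 0.0109 CPM in wild-type placebo KSL cells. These are 1 library per genotype with no replicate check, and marrow also held more neutrophil marker transcripts (97921 and 104429 CPM, against 503 to 1842 CPM in KSL libraries) and B cell marker transcripts (612 and 613 CPM, against 67.9 to 98.7). The part of those cells in the Hoxb4 and Hoxb1 reads was not tested.

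**Figure D4:**
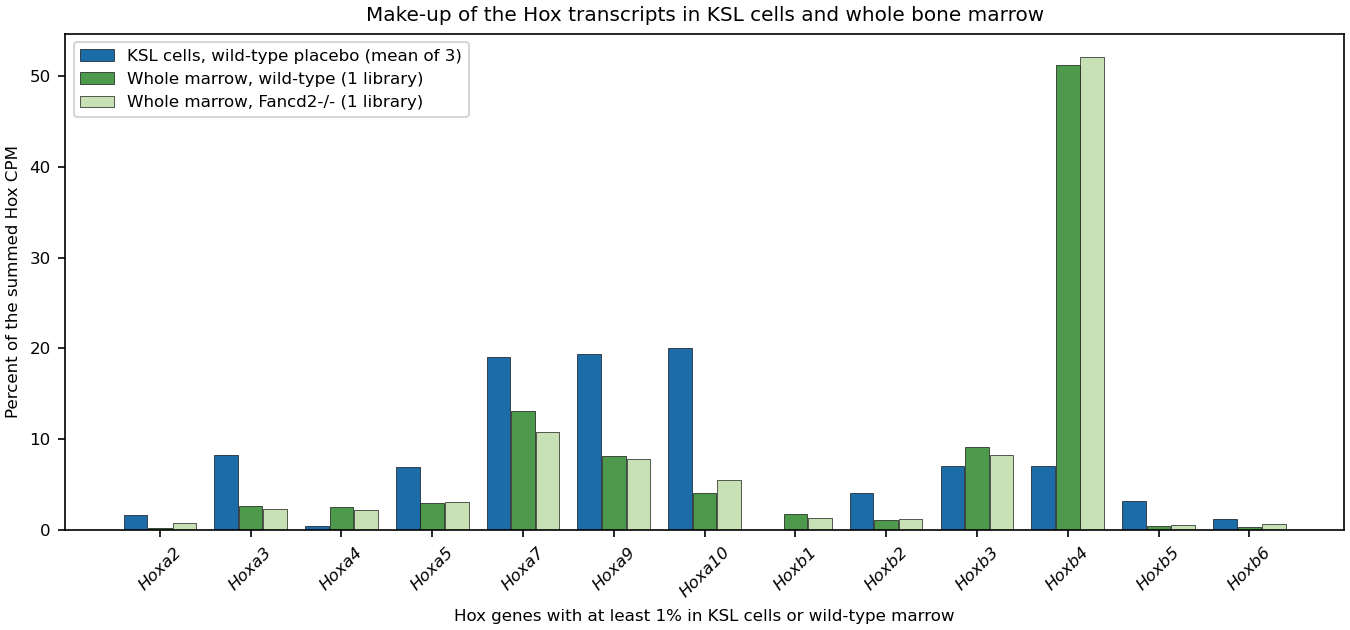
Share of the summed Hox CPM (percent, vertical axis) of each Hox gene with at least 1% in KSL cells or wild-type marrow, for wild-type placebo KSL cells (mean of 3 libraries) and the 2 whole marrow libraries. Hoxb4 takes 51.2 and 52.1% of marrow and 7.07% of KSL cells, and Hoxa9 and Hoxa10 take 19.4 and 19.99% of KSL cells and 8.10 and 4.03% of wild-type marrow.

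The 2 marrow libraries were compared by read count. The Fancd2-/- to wild-type ratio was 1.03 for Hoxb4 (95% counting interval 0.948 to 1.12), 0.979 for Hoxa9 (0.793 to 1.21) and 0.910 for Hoxb3 (0.743 to 1.11). Hoxa10 was at 1.39 (1.05 to 1.84, 132 against 89 reads) and Hoxa7 at 0.837 (0.705 to 0.993, 258 against 289 reads). The intervals of Hoxa2 (18 against 5 reads), Hoxb8 (11 against 2) and Hoxb7 (7 against 0) lay above 1 and that of Hoxc6 (7 against 17) below 1. The intervals cover counting error of these 2 libraries and not the spread between mice.

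In KSL cells on placebo the question was whether loss of Fancd2 moved the Hox genes. Most tested members were below 0 and none passed edgeR's test. It called 0 of the 18 members tested (5 had an unadjusted p under 0.05), where 1.28% of 13259 genes were called and 19.6% had an unadjusted p under 0.05. DESeq2 called 3 (Hoxa9, Hoxb3 and Hoxb5), against 6.1% of all genes. Limma voom with quality weights called 7 (those 3 with Hoxa6, Hoxb4, Hoxb6 and Hoxc6), against 11.1% of all genes. All these members were lower. The other 21 members did not pass the filter. Of the 18, 14 were below 0, with a median log2 difference of -0.31 against -0.012 over all genes.

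Hoxa9 was at 44.97 ± 0.909 CPM in Fancd2-/- and 58.7 ± 2.84 CPM in wild-type placebo cells (log2 -0.39 ± 0.12, edgeR adjusted p = 0.1092), with no overlap between groups. Hoxb5 was at 6.35 against 9.63 CPM (-0.62 ± 0.19, adjusted p = 0.112), also without overlap, and Hoxb3 at 13.2 against 21.3 CPM (-0.70 ± 0.22, adjusted p = 0.1219), with overlap. Hoxb6 was at 1.65, 1.45 and 2.71 against 2.65, 3.74 and 4.23 CPM (-0.86 ± 0.34, adjusted p = 0.1897). Hoxa6, at 0.114, 0.0316 and 0.0653 against 0.358, 0.367 and 0.180 CPM, rested on few reads (-2.31 ± 0.75, adjusted p = 0.127). Hoxb4, at 15.1 against 21.4 CPM, had -0.52 ± 0.25 (adjusted p = 0.2594). Hoxb4 and Hoxa7 were highest in the deepest KSL libraries, of which Fancd2-/- placebo held none. The lower group lay wholly below the other for 4 of the 18 members (Hoxa6, Hoxa9, Hoxb4 and Hoxb5), against 13.4% of all genes tested. Hoxa7 (-0.24 ± 0.15), Hoxa10 (-0.13 ± 0.17), Hoxa5 (-0.31 ± 0.21), Hoxa3 (-0.44 ± 0.22) and Hoxb2 (-0.32 ± 0.19) were below 0 with overlapping groups.

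The library that stood apart had the lowest Hoxa3, Hoxa5 and Hoxb3. Without it, Hoxa9 was at -0.37 (adjusted p = 0.1977), Hoxb5 at -0.64 (0.1801), Hoxb6 at -1.18 (0.1475), Hoxa5 at -0.094 and Hoxb3 at -0.48 (0.2816), and 0 of 19 members tested were called. The KSL marker sum was 2704 to 3331 CPM in Fancd2-/- and 3463 to 3923 CPM in wild-type placebo libraries, 0 of the 6 markers were at 0 in any of these, and 4 of the 6 had a log2 difference below 0. B cell marker sums (78.3 to 86.5 against 71.0 to 98.7 CPM) and neutrophil marker sums (503 to 1378 against 998 to 1242 CPM) overlapped between the groups. Most of these sums came from Cd79b (75.4 against 75.6 CPM) and Mpo (830 against 1030 CPM). Mpo was the 1 neutrophil marker with a log2 difference below 0. The 6 others were above 0 and not called, among them Ngp (23.5 ± 29.8 against 10.3 ± 3.55 CPM). The part of the cells' make-up in the Hox differences was not tested.

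Regulators of the clusters were examined in the same fit. Of 7 tested TALE cofactors 0 were called, 6 were below 0 and 3 had an unadjusted p under 0.05, among them Pbx2 (81.1 ± 3.77 against 103 ± 1.63 CPM, -0.35 ± 0.13, adjusted p = 0.1644) and Meis3 (-0.85 ± 0.36, adjusted p = 0.2139), while Meis1 was at 189 ± 43.5 against 231 ± 18.2 CPM (-0.30 ± 0.15, adjusted p = 0.2832). Of 12 tested activators 0 were called and 10 were below 0, with 5 at an unadjusted p under 0.05. Kdm6b, an H3K27 demethylase, was at 33.5 ± 2.14 against 60.1 ± 6.51 CPM (-0.85 ± 0.25, adjusted p = 0.1006), Myst3 at -0.39 ± 0.13, Ash1l at -0.40 ± 0.16 and Mll1 at 182 ± 54.4 against 264 ± 47.4 CPM (-0.55 ± 0.23, adjusted p = 0.2127). DESeq2 and limma voom called Kdm6b lower.

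Of 16 Polycomb genes 1 was called. Cbx7, a PRC1 subunit, was at 28.6 ± 6.16 CPM in Fancd2-/- against 52.0 ± 6.21 CPM in wild-type cells (-0.88 ± 0.20, adjusted p = 0.04735). The call was lost in 6 of 13 alternatives, with any single library left out other than Fancd2-/- placebo replicate 1 and with transcripts summed (adjusted p up to 0.1864). Ezh1 (-0.56 ± 0.13, adjusted p = 0.0576), Eed (0.38 ± 0.11, adjusted p = 0.09922) and Ezh2 (0.33 ± 0.10, adjusted p = 0.1192) had groups that did not overlap, Ezh1 lower and the others higher, and were not called. The median of the 16 was -0.18. Of the 8 tested genes beside the clusters 0 were called, 5 were above 0 and the median was 0.13, with Mtx2, beside HoxD, at 0.49 ± 0.17 (adjusted p = 0.1485) and Calcoco1 at -0.55 ± 0.27 (adjusted p = 0.2743).

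On oxymetholone edgeR called 0 of 18 members (1 with an unadjusted p under 0.05, against 5.57% of all genes), where 0.128% of 13259 genes were called, and DESeq2 and limma voom also called 0. The median log2 difference was 0.07, with 12 above 0. Hoxb8, whose forced expression immortalises progenitors, had the smallest p, at 1.03, 2.59 and 1.93 CPM in Fancd2-/- against 1.02, 0.784 and 1.16 CPM in wild-type cells (0.96 ± 0.34, adjusted p = 0.6313), with overlap. Hoxb9 was at 0.962, 1.15 and 1.07 against 0.588, 0.314 and 0.615 CPM (1.15 ± 0.55, adjusted p = 0.9072) and was the 1 member whose Fancd2-/- values all lay above, against 5.69% of all genes. Hoxa9 was at -0.15 ± 0.12 and Hoxb5 at -0.01 ± 0.19. Both genotype comparisons are tied to the oxymetholone comparisons below through shared libraries.

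**Figure D5:**
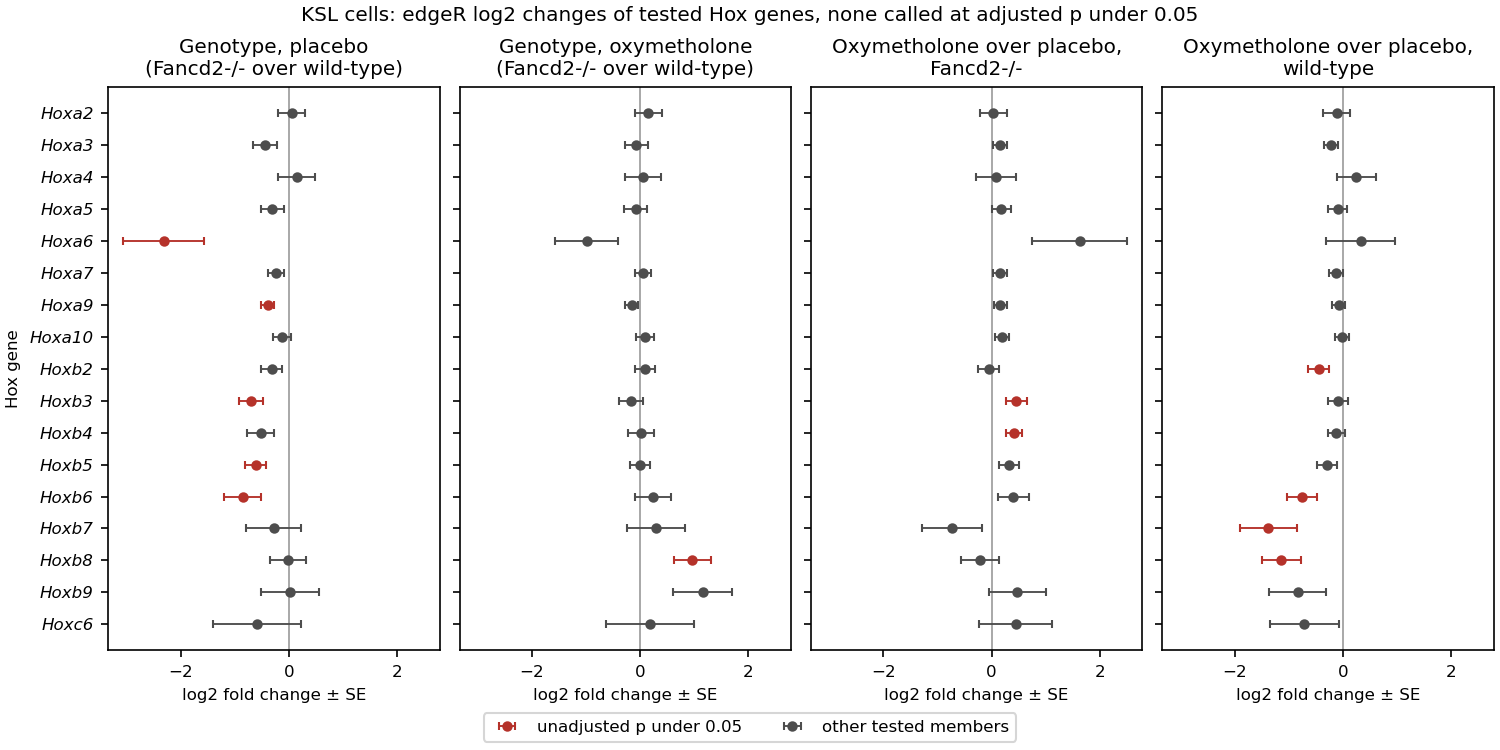
edgeR log2 fold change ± SE of 17 of the 18 tested Hox genes in KSL cells for genotype on each diet and for oxymetholone in each genotype, with members of unadjusted p under 0.05 in red. On placebo Hoxa6, Hoxa9, Hoxb3, Hoxb5 and Hoxb6 lie left of 0 in red, with oxymetholone in wild-type cells Hoxb2, Hoxb6, Hoxb7 and Hoxb8 do, and none passed adjustment.

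Oxymetholone was compared with placebo in pairs of libraries that shared a cytometer setting. In Fancd2-/- cells edgeR called 0 of 18 members (2 with an unadjusted p under 0.05, against 6.81% of all genes), where 0% of 13259 genes were called, and DESeq2 and limma voom called 0. The median log2 change was 0.17, with 14 above 0, against -0.0092 over all genes. Hoxb4 was at 0.41 ± 0.15 (adjusted p = 0.688), with log2 ratios of 0.07, 0.44 and 0.69 in pairs 1 to 3 (0.5 CPM added), and Hoxb3 at 0.46 ± 0.19 (adjusted p = 0.688), with -0.08, 0.38 and 1.02. The largest ratio of both was in pair 3, whose placebo library stood apart. That placebo library had the lowest Hoxb3 of all KSL libraries, but for Hoxb4 it was the highest of its group. Its oxymetholone partner had the highest Hoxb4 of any library, at 27.7 CPM, and was the deepest of its group (112579150 counted reads). Without the placebo library of pair 3, Hoxb4 and Hoxb3 were at 0.27 (unadjusted p = 0.1223) and 0.17 (0.3559). That fit loses the comparison within pair 3, so it cannot tell which library of the pair mattered. Hoxa9 was higher in 3 of 3 pairs (0.27, 0.11 and 0.13, 0.16 ± 0.12, adjusted p = 0.7107) and was the 1 member whose groups did not overlap upwards, against 3.27% of all genes. Hoxb5 (0.29, 0.60 and 0.06) and Hoxb6 (0.53, 0.48 and 0.03) were also higher in 3 of 3 pairs and not called.

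In wild-type cells edgeR called 0 of 18 (4 with an unadjusted p under 0.05, against 2.69% of all genes), where 0% of 13259 genes were called. DESeq2 called 0 and limma voom 1 (Hoxb8), where it called 1.92% of all genes. The median log2 change was -0.17, with 16 below 0, against -0.0047 over all genes, and the 4 smallest p were all of HoxB. Hoxb8 was at 1.02, 0.784 and 1.16 CPM on oxymetholone and 2.23, 1.95 and 2.07 CPM on placebo (-1.13 ± 0.36, adjusted p = 0.9991), lower in 3 of 3 pairs. Hoxb7, which shares exon sequence with it, was at 0.155, 0.409 and 0.342 against 0.799, 0.766 and 0.720 CPM (-1.38 ± 0.53), Hoxb6 at 1.33, 2.84 and 2.26 against 2.65, 3.74 and 4.23 CPM (-0.75 ± 0.28), and Hoxb2 at 8.75, 9.30 and 9.09 against 11.99, 10.7 and 14.5 CPM (-0.44 ± 0.19), all at adjusted p = 0.9991. Groups did not overlap for 4 members, all lower (Hoxb2, Hoxb5, Hoxb7 and Hoxb8), against 4.35% of all genes. Of HoxA, Hoxa9 was at -0.08 ± 0.12, Hoxa10 at -0.02 ± 0.13, Hoxa7 at -0.13 ± 0.13 and Hoxa3, lower in 3 of 3 pairs, at -0.21 ± 0.13. Of HoxB, Hoxb3 was at -0.10 ± 0.19 and Hoxb4 at -0.12 ± 0.15, and the 2 clusters were not tested against each other.

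The difference of the 2 oxymetholone effects was tested as an interaction. edgeR called 0 of 18 members (3 with an unadjusted p under 0.05, against 3.45% of all genes), where 0% of genes were called, and DESeq2 and limma voom called 0. Hoxb6 was at 1.15 ± 0.40, Hoxb5 at 0.62 ± 0.26 and Hoxb4 at 0.53 ± 0.21 (adjusted p = 0.9529 each), and 16 of 18 were above 0. The interaction uses the same libraries as both oxymetholone comparisons, and the effects in the 2 genotypes were not shown to differ. For Hoxb4 the highest values were in the deepest KSL libraries, of which Fancd2-/- placebo held none. Cofactors, activators, Polycomb genes and neighbours had 0 calls with oxymetholone in either genotype. The lowest p in Fancd2-/- cells were of the activators Ash1l (0.47 ± 0.15) and Myst3 (0.37 ± 0.12), both at adjusted p = 0.688, and in wild-type cells of Cbx7 (-0.53 ± 0.15, adjusted p = 0.9991).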

How the data were processed

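RNA from KSL cells, erythroblasts and whole marrow was sequenced as oligo(dT)-selected libraries with reads of 51 bases. The authors deposited raw counts per RefSeq transcript (mm9, with Bowtie, per the submitters' processing notes) and a scaled score, whole numbers with the same total in each library. The sources used here give neither software versions nor the strand setting, and do not say how multiply aligned reads were counted.

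The deposited counts were tested with edgeR 4.0.16 in R 4.3.3 (quasi-likelihood test, TMM, filterByExpr, Benjamini-Hochberg over all genes, threshold 0.05), using the transcript with the largest total per symbol. Levels are CPM with TMM factors computed within each population, and pooled ratios use library totals. Alternatives were DESeq2 1.42.0, limma 3.58.1 (voom, and log2 of the deposited score plus 1), other scaling, no filter, summed transcripts and each library left out. Intervals are exact at 95% and cover counting error only.

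Oxymetholone effects were fitted with the pair of libraries as a block, since the design text gives each pair a shared cytometer setting. Deviations within pairs 1 to 6 correlated across genes at 0.201, -0.0428, 0.278, 0.16, 0.379 and 0.249. Replicates of KSL cells are separate pools of mice.

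One column name, for Fancd2-/- placebo KSL replicate 1, differed from its label by 1 character and was taken as that sample. Members, lists and markers were chosen with earlier results of these data known. Members of at least 5 CPM in a replicated group are given in every library, others by their level or highest value, and up to 4 genes per list are named, called ones first and then by p. Programs were tested on simulated data. Some results are not reported here.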

Additional observations from a re-analysis of the deposited data

How the results depend on the processing

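Of the counts of Hox genes called, 106 of the alternatives' values stayed within 1.5 times the main count and 3 did not. An unchanged count of 0 was taken as within. The main count was 0 in every comparison within a population, and 0 members were tested within erythroblasts. In the comparisons of erythroblasts with KSL cells the members had to differ. The 106 therefore give no measure of how firm the calls are. With genotype on placebo DESeq2 called 3 and limma voom 7 members against 0 with edgeR, and with oxymetholone in wild-type cells limma voom called 1 against 0. The cause was not tested. Over all genes, genotype on placebo gave 170 calls with edgeR, 809 with DESeq2, 1473 with limma voom, and 19 to 236 when 1 library was left out (76 without Fancd2-/- placebo replicate 3). With the replicate block as a random effect in limma voom, 0 members were called for genotype on either diet. On placebo this compares with the 7 members of limma voom with quality weights and no such block. In edgeR with no replicate block 0 members were called for oxymetholone in either genotype or the interaction, the same count as with the block. Of log2 changes of single Hox genes, 655 kept direction and side of the threshold, 10 passed it and 3 reversed. The reversed ones were small: Hoxa2 for genotype on placebo was 0.05 in the main fit, -0.09 with limma voom (-0.0896) and -0.0154 to 0.172 with 1 library left out, and Hoxa10 was -0.13 and -0.286 to 0.0287. For genes of the other lists 491 were unchanged in this sense, 15 passed the threshold and 14 lost it. Members under 1 CPM rest on few reads, which limits the precision of their differences.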
